A study of Mus musculus with 13 samples.

Results

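Sorted wild-type round spermatids were set against wild-type whole testis across all genes of the deposited table. The members are 4 of the series' 13 RNA libraries, taken by their labels: 2 of round spermatids and 2 of testis, all from mice at postnatal day 25 (P25) that carried no engineered change at Wfdc15a. The rest of the series holds heterozygous (Het) and knockout (KO) mice of that gene, in the same 2 sample types. For the testis libraries the tunica was taken off and 2 ng of total RNA was used. For the spermatid libraries 100 to 200 cells were sorted by the fluorescence of the DNA dye Vybrant DyeCycle Green. Complementary DNA was made by Smart-seq2, which copies polyadenylated RNA without recording the strand, so reads of a gene and of an overlapping or antisense partner cannot be told apart. Whether 2 libraries of a group stem from different mice is not in the labels; the p-values therefore rest on the spread among these 4 libraries alone, and that spread could be technical.

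Round spermatids are the haploid germ cells that leave meiosis. They keep transcribing from their haploid genome while they build the acrosome, the enzyme vesicle used to enter the egg, and begin the sperm tail, and they store many messenger RNAs for later translation. Later, in elongating spermatids, transition proteins and then protamines take the place of histones. Whole testis adds to these cells the earlier germ cells, above all meiotic spermatocytes, and the somatic Sertoli, Leydig, peritubular and interstitial cells.

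The libraries were scaled to totals of 18438704 and 15785198 reads for testis and 17120321 and 20389217 reads for round spermatids. Between 14414 and 15505 genes of each library reached 1 RPM (reads scaled to a common library total). No read allows a level of at most 0.147 to 0.190 RPM, where 3 reads would lie. This limit takes in counting error of independent reads and nothing else. Of recovered counts from 2 to 50 reads, 62.55% to 63.51% were even in these libraries. Reads may thus not be independent, which would raise the limit and lower the fold bounds set against it. That was not tested. The 10 most abundant genes took 8.05% and 8.11% of the summed RPM in testis and 4.74% and 4.45% in round spermatids. Two-sided limma tests were made on log2(RPM + 1), a scale that understates the change of low genes. A gene was called at an adjusted p under 0.05, and every difference given is round spermatid minus testis.

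The 2 libraries labelled wild-type testis held little RNA of many somatic cell markers, and they stood apart from other testis libraries of the series. Clu, a secreted chaperone that Sertoli cells make in large amounts, was at 16.3 and 17.5 RPM in them, against 1150 RPM in the Het testis library. Amh, the Sertoli hormone, had no read in any of the 4 wild-type libraries, and Sox9, a Sertoli transcription factor, was at 0.108 and 0.76 RPM in testis; both, and Dcn, were named after their values were seen. Cyp17a1, a steroid hydroxylase of Leydig cells, was at 12 and 8.43 RPM in wild-type testis and 448 RPM in Het testis, and Dcn, which encodes the stromal proteoglycan decorin, had 2.39 and 3.29 RPM against 148 RPM. The 20 tested Sertoli markers summed to 165 and 169 RPM in wild-type testis, 97.1 and 96.3 RPM in wild-type round spermatids, 90.3 RPM in KO testis replicate 1, and 2540 to 2920 RPM in the other 3 testis libraries. The 11 tested markers of spermatogonia and meiotic entry were low as well, with sums of 45.3 and 37.0 RPM in wild-type testis against 573 RPM in Het testis. In wild-type round spermatids they summed to 57.7 and 45.7 RPM. Round spermatids were thus compared with testis RNA that held little of many of these markers. Why it did was not tested. In bulk RNA, fewer cells of a type and less RNA per cell cannot be told apart.

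**Figure D1:**
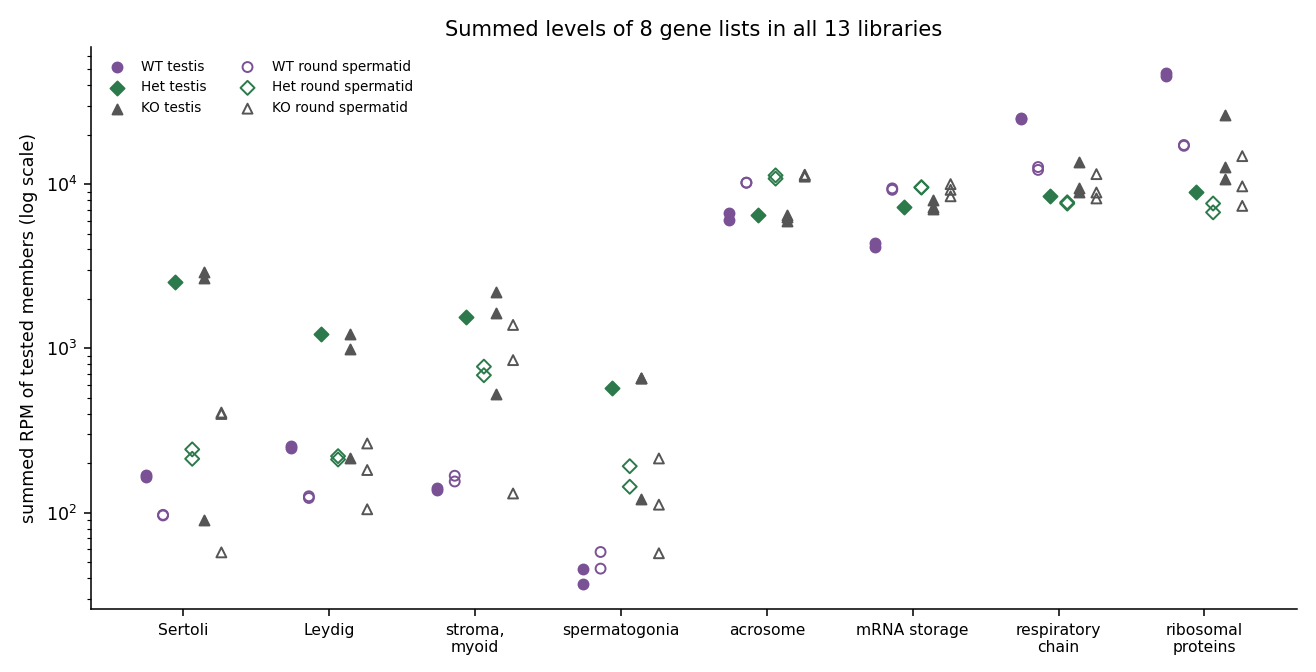
Summed RPM (log scale) of the tested members of 8 gene lists, 1 point per library; filled points are testis, open points round spermatids, and shapes mark the genotype. Wild-type testis holds 165 and 169 RPM of Sertoli markers against 2540 RPM in Het testis, and 45300 and 47500 RPM of ribosomal protein RNA against 8900 RPM.

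Of 15896 genes tested, 5954 (37.5%) were called: 4029 (25.3%) were higher in round spermatids and 1925 (12.1%) were lower. Counts of calls in the lists below are to be read beside these shares. At an unadjusted p under 0.05, 7559 genes passed. The difference ran from -5.55 to 6.11 on the log2 scale with a median of 0.305 over all genes tested, and 3590 of the higher and 1446 of the lower genes differed at least 2-fold. The 2 groups did not overlap for any called gene, nor for 69.8% of all genes tested. The split leaned on the scaling: with libraries centred on the median of the tested genes, which shifts the median by 0.468, 2507 genes were higher and 3336 lower, and after quantile normalization 2735 and 2793. Leaving out 1 round spermatid library, so that the lone one is assumed to vary like testis, left 571 higher and 416 lower genes without replicate 1, and 424 and 337 without replicate 2. A fit of all 13 libraries called 2101 higher and 596 lower.

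**Figure D2:**
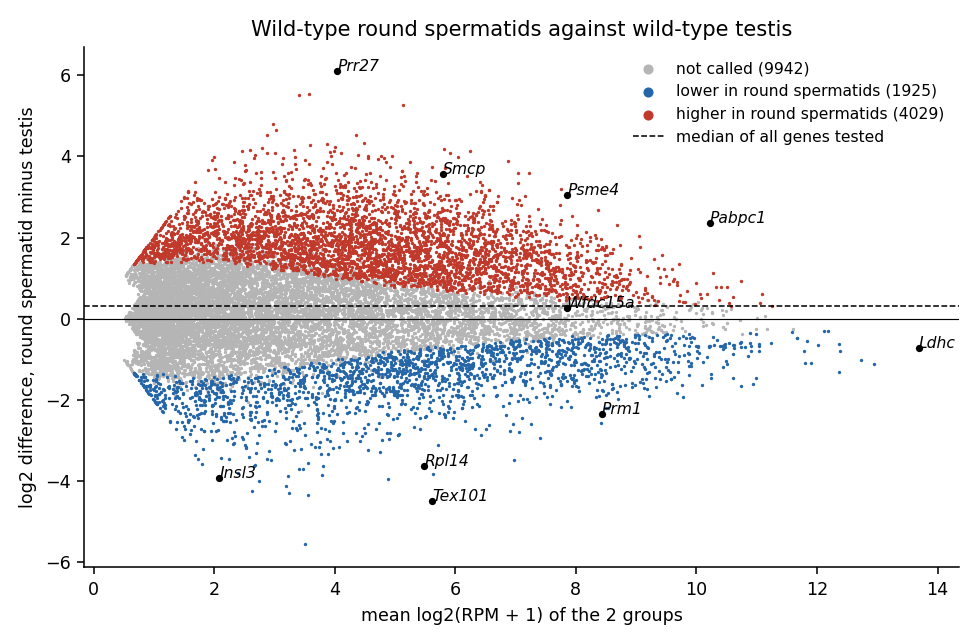
Each point is a gene: mean log2(RPM + 1) of the groups against the log2 difference, round spermatid minus testis; 4029 genes called higher are red, 1925 called lower are blue. The dashed line is the median of all genes at 0.305, and Wfdc15a lies close to it.

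The largest rise was that of Prr27, a proline-rich protein gene, at 1.74 and 0.444 RPM in testis and 151 and 123 RPM in round spermatids (log2 difference 6.11 ± 0.41 SE, limma adjusted p = 0.000112). Adgb, which encodes androglobin, a globin of testis, was at 0.217 and 1.52 RPM in testis and 62.8 and 101 RPM in round spermatids (5.53 ± 0.48, limma adjusted p = 0.000148). Tasor2 rose from 2.22 and 9 RPM to 234 and 201 RPM. In each of these 3 genes, chosen for large rises without overlap, the lower spermatid library was far above the higher testis library. The other 12 genes with the largest rises were Nutm1, Upf3b, Ccdc138, Swt1, Carmil1, Klf4, Iqca, Atad2, Wdr47, Mmut, Alg13 and Ms4a14, with log2 differences from 4.12 to 4.8. NUTM1 is a postmeiotic chromatin factor, UPF3B acts in nonsense-mediated decay and KLF4 is a transcription factor of round spermatids. Ms4a14 was the most abundant of the 12, at 14.3 and 20.5 RPM in testis and 341 and 291 RPM in round spermatids.

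Other testis libraries held more of several of these transcripts. Adgb was at 47.3 to 92.8 RPM in the 4 testis libraries of Het and KO mice, and Prr27 at 13.8 to 68.1 RPM there. Round spermatids of Het and KO mice had 46.1 to 178 RPM of Adgb and 97.9 to 166 RPM of Prr27, ranges that include both wild-type spermatid values. In Het mice the order was reversed for Carmil1 (119 RPM in testis, 69.9 and 57.4 RPM in round spermatids) and Ccdc138 (54.7 RPM, 40.8 and 45.2 RPM). Klf4 was at 56.4 RPM in testis and 19.5 RPM in round spermatids of KO replicate 1. Ms4a14 kept its direction, at 87.7 to 176 RPM in other testis and 233 to 326 RPM in other spermatid libraries. Among the 4029 genes called higher, all 4 other testis libraries lay above both wild-type ones for 2167 (53.8%), against 26.9% of all genes tested. Among the 1925 called lower, all 4 lay below both wild-type ones for 1074 (55.8%), against 15.5% of all tested. For round spermatids, all 5 other libraries lay below both wild-type ones for 22.2% of the genes called higher, against 16.1% of all tested. The genes were called with the wild-type testis values, so these shares are a description. Genotype, and whatever else sets the wild-type testis libraries apart, cannot be told apart here.

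Among named genes, with predicted genes and pseudogenes left out and at least 10 RPM in testis, the largest fall was that of Tex101, a surface protein of germ cells that sperm fertility requires, at 254 and 213 RPM in testis and 12.6 and 6.82 RPM in round spermatids (log2 difference -4.50 ± 0.31 SE, limma adjusted p = 0.000112). Rpl39, an X-linked ribosomal protein gene, fell from 19.7 and 34.4 RPM to 0.701 and 0.196 RPM (-4.25 ± 0.49, limma adjusted p = 0.000416). Rassf1, a tumour suppressor and scaffold of the Hippo pathway, was at 128 and 105 RPM in testis and 8 and 5.35 RPM in round spermatids. The others of the 15 largest falls were Commd9, Dcaf13, Wfdc10, Insl3, Cnmd, Eif2b1, Mrpl27, Pop4, Cst12, Rpl14, Rps19bp1 and Rps4x, from -4.35 to -3.62. Several of these encode parts of the translation machinery: EIF2B1 is a subunit of an exchange factor that starts translation, MRPL27 belongs to the mitochondrial ribosome, and RPL14 and RPS4X to the cytosolic one. Insl3 is a hormone of Leydig cells and Cst12 a cystatin of Sertoli cells. Tex101 was at 41.6 to 472 RPM in the other testis libraries and 19.2 to 155 RPM in the other spermatid libraries, and Rpl14 at 80.9 to 189 RPM and 22.1 to 45.2 RPM in the same order. For Tex101 those ranges overlap, KO testis replicate 1 being the lowest testis library; for Rpl14 they do not.

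Transcription regulators of round spermatids had the highest median of the 27 lists: 12 of 17 tested members rose, 0 fell, and the median log2 difference was 1.87, against 0.305 for all genes. Without round spermatid replicate 1 or 2, 4 and 3 were called. Rfx3, a factor that drives genes of cilia, was at 5.42 and 4.31 RPM in testis and 50.6 and 58.1 RPM in round spermatids (3.24 ± 0.33 SE, limma adjusted p = 0.000258). Its relative Rfx2, needed for spermatids to elongate, rose from 40.0 and 35.5 RPM to 134 and 162 RPM (1.94 ± 0.22). Kif17, a kinesin that carries a coactivator of CREM, was at 6.40 and 6.78 RPM in testis and 62.4 and 50.1 RPM in round spermatids. Nr6a1, an orphan nuclear receptor of germ cells, was at 12.8 and 8.05 RPM and 69.3 and 73.1 RPM. Foxj1, Sox30 and Taf7l, chosen after their values were seen, rose by 3.91, 3.30 and 2.75 on the log2 scale. Crem, the cAMP-responsive activator of many spermatid genes, was high in all 4 libraries, at 471 and 546 RPM in testis and 765 and 715 RPM in round spermatids, and its difference was 0.54 ± 0.13 (limma adjusted p = 0.011). It was 0.08 and not called with centred libraries, and -0.13 when a trend on gene span was taken out. Tbpl1 and Gtf2a1l, parts of a testis form of the basal transcription machinery, did not pass, at -0.12 and 0.23. In Het and KO mice the list's median was 0.77 and 0.70, with KO replicate 1 alone at 0.66.

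RefSeq promoter windows of Kif17 and Nr6a1 hold a full cAMP response element, the site that CREM binds. They are shown because both genes rose within this list; of its 15 members with a promoter in the table, these 2 hold the element. The windows run from 250 bases before to 50 after the start site, 5′ to 3′ on the gene's strand, from RefSeq on GRCm38.p6, and capitals mark TGACGTCA (a palindrome, so both strands are searched at once). Kif17 is taken from chr4:138262001-138262300, plus strand, with the element starting 86 bases before the start site, and Nr6a1 from chr2:38926412-38926711, minus strand, with it 36 bases after. Both windows lie inside the deposited spans of these genes, chr4:138250435-138301967 and chr2:38723370-38927688. The start sites are thus RefSeq starts within those spans, not at their ends.
Kif17: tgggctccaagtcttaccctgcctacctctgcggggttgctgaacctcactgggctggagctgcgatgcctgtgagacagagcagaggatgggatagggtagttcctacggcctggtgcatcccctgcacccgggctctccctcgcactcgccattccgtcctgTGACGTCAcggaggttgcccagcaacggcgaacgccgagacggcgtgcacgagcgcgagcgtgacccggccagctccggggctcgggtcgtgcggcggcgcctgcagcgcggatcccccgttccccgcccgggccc
Nr6a1: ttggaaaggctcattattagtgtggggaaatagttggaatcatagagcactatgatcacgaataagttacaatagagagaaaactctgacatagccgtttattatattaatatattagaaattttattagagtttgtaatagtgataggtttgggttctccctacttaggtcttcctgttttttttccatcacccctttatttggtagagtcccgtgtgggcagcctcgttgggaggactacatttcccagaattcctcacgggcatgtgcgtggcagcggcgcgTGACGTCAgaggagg
Over 11615 tested genes with a promoter in the table, the element stood in 2.79% of windows, in 3.03% of those of genes called higher and 2.99% of those of genes called lower, against 1.79% of all windows. The exact element was thus about as frequent in genes that rose as in genes that fell.

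Of 31 tested genes of the acrosome and of sperm-egg fusion, 22 rose and 0 fell, with a median of 1.16; without round spermatid replicate 1 or 2, 12 and 8 were called higher. Spaca1, a membrane protein that shapes the acrosome, was at 37.1 and 36.4 RPM in testis and 451 and 458 RPM in round spermatids (3.59 ± 0.17 SE, limma adjusted p = 9.88e-05). Acrv1, a protein of the acrosomal matrix, rose from 74.3 and 60.5 RPM to 354 and 312 RPM. Spaca7 and Tmem190, both acrosomal proteins, rose by 2.54 and 2.61 on the log2 scale. These 4 genes were named for the smallest p of the list, a choice that favours close replicates and groups far apart. Adam3, a membrane protein that sperm need to reach the egg, was much more abundant and moved little, from 1390 and 1353 RPM to 1672 and 1711 RPM (0.30 ± 0.10, limma adjusted p = 0.035); its sign turned under centring (-0.17) and with the gene span trend removed (-0.31). Zpbp2, Adam2 and Spata16, 3 of the 4 most abundant members, did not pass, at 0.22, -0.36 and 0.03. The list's median was 1.04 in Het and 1.01 in KO mice, close to its wild-type value.

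**Figure D3:**
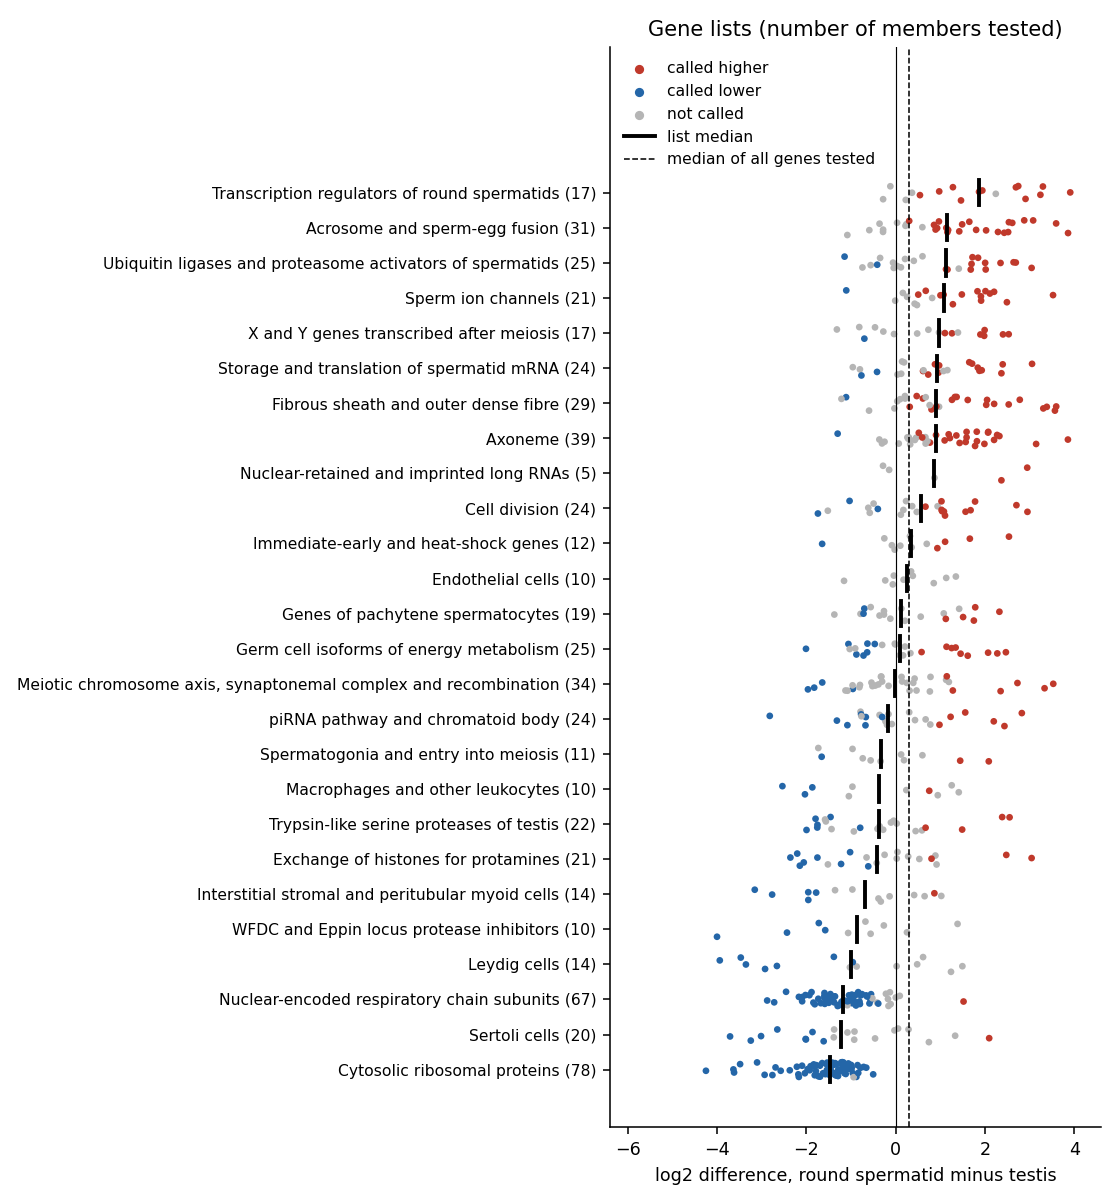
Log2 difference, round spermatid minus testis, of each tested member of 26 lists with at least 5 tested members; red points were called higher, blue lower, grey not called. Black bars are list medians, from 1.87 for spermatid transcription regulators to -1.46 for ribosomal proteins, and the dashed line is the median of all genes tested.

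Genes of the sperm tail moved the same way. Of 29 genes of the fibrous sheath, outer dense fibres and midpiece, 18 rose and 1 fell (median 0.911), and of 39 axoneme genes 23 rose and 1 fell (median 0.904). Without round spermatid replicate 1 or 2 the higher calls were 6 and 6 in the first list and 10 and 8 in the second. Fsip2, a large protein of the fibrous sheath, rose from 29.8 and 58.9 RPM to 557 and 481 RPM (3.60 ± 0.29 SE, limma adjusted p = 0.000137). Akap3, which anchors protein kinase A in the sheath, rose from 27.7 and 25.5 RPM to 263 and 280 RPM. Smcp, a protein of the mitochondrial capsule of the midpiece, rose from 16.5 and 13.8 RPM to 201 and 178 RPM. These genes encode proteins that are assembled in later stages, and all 3 were at 178 RPM or more in both round spermatid libraries. The exception was Gstm5, a glutathione S-transferase and one of the most abundant transcripts in both groups, which fell from 11490 and 11740 RPM to 5453 and 5312 RPM (-1.11 ± 0.07, limma adjusted p = 9.88e-05), though it was at 0 under quantile normalization, as it keeps its rank. In the axoneme, Dnah3, a dynein heavy chain, rose from 8.35 and 9.76 RPM to 138 and 151 RPM (3.86 ± 0.26), and Tekt2, a tektin that stiffens the doublet microtubules, from 149 and 161 RPM to 616 and 697 RPM. Rsph9, a radial spoke protein, was the 1 axoneme gene that fell, from 1035 and 1062 RPM to 416 and 436 RPM (-1.30 ± 0.12). In Het mice Rsph9 (158 RPM in testis, 263 and 246 RPM in round spermatids) and Gstm5 (1580 RPM, 2890 and 2930 RPM) were higher in round spermatids. KO testis had 457, 167 and 197 RPM of Rsph9, and KO round spermatids 432, 304 and 263 RPM. Smcp, which rose in wild-type mice, was at 182, 39.4 and 32.8 RPM in KO testis and 98.5, 86.4 and 64.3 RPM in KO round spermatids. The sheath list's median was 1.08 in Het and 0.67 in KO mice, and the axoneme list's 0.45 and 0.46. All 4 other testis libraries lay above both wild-type ones for 25 of 39 axoneme and 8 of 29 sheath genes. Those shares are 64.1% and 27.6%, against 26.9% of all genes tested.

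Of 21 sperm ion channel genes, 14 rose and 1 fell (median 1.07); 4 and 5 were higher without round spermatid replicate 1 or 2. Catsper1, a pore subunit of the calcium channel of the tail, rose from 7.92 and 15.1 RPM to 131 and 143 RPM, and Catsper2, another pore subunit, from 137 and 174 RPM to 552 and 619 RPM. Adcy10, the soluble adenylyl cyclase that bicarbonate activates, rose from 35.6 and 29.6 RPM to 199 and 176 RPM (2.49 ± 0.21 SE, limma adjusted p = 0.000148). Catsperz, an auxiliary subunit of the same channel, went the other way, from 2239 and 2039 RPM to 1041 and 945 RPM (-1.11 ± 0.11, limma adjusted p = 0.000207). Against wild-type testis, subunits of 1 channel thus differed in opposite directions. In Het mice Catsperz was instead higher in round spermatids, at 508 and 453 RPM against 287 RPM in testis. KO testis had 739, 273 and 283 RPM of it, and KO round spermatids 892, 548 and 473 RPM.

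Genes that store and translate spermatid mRNA, and genes of ubiquitin ligases and the proteasome, rose in 13 of 24 (2 fell, median 0.92) and 12 of 25 (2 fell, median 1.13). Without either round spermatid library 7 of the first and 6 of the second were called higher. Pabpc1, the cytoplasmic poly(A)-binding protein, was at 441 and 624 RPM in testis and 2738 and 2689 RPM in round spermatids (2.37 ± 0.16 SE, limma adjusted p = 0.000112). Cpeb2, a regulator of polyadenylation and translation, rose from 28.7 and 31.8 RPM to 251 and 266 RPM, and Papolb, a testis poly(A) polymerase, from 184 and 193 RPM to 688 and 560 RPM. Tarbp2, a partner of Dicer that also binds stored messages, and Patl2 fell by 0.77 and 0.42 on the log2 scale. The storage list's median was 0.18 in Het and -0.13 in KO mice. A test of such differences over all genes follows below, without results for the storage genes alone. Klhl10, an adaptor of the cullin 3 ubiquitin ligase in spermatids, rose from 41.4 and 30.6 RPM to 260 and 213 RPM, and the cullin itself, Cul3, from 24.2 and 33.6 RPM to 191 and 175 RPM. Psma8, the proteasome subunit of germ cells, fell from 271 and 279 RPM to 125 and 123 RPM.

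**Figure D4:**
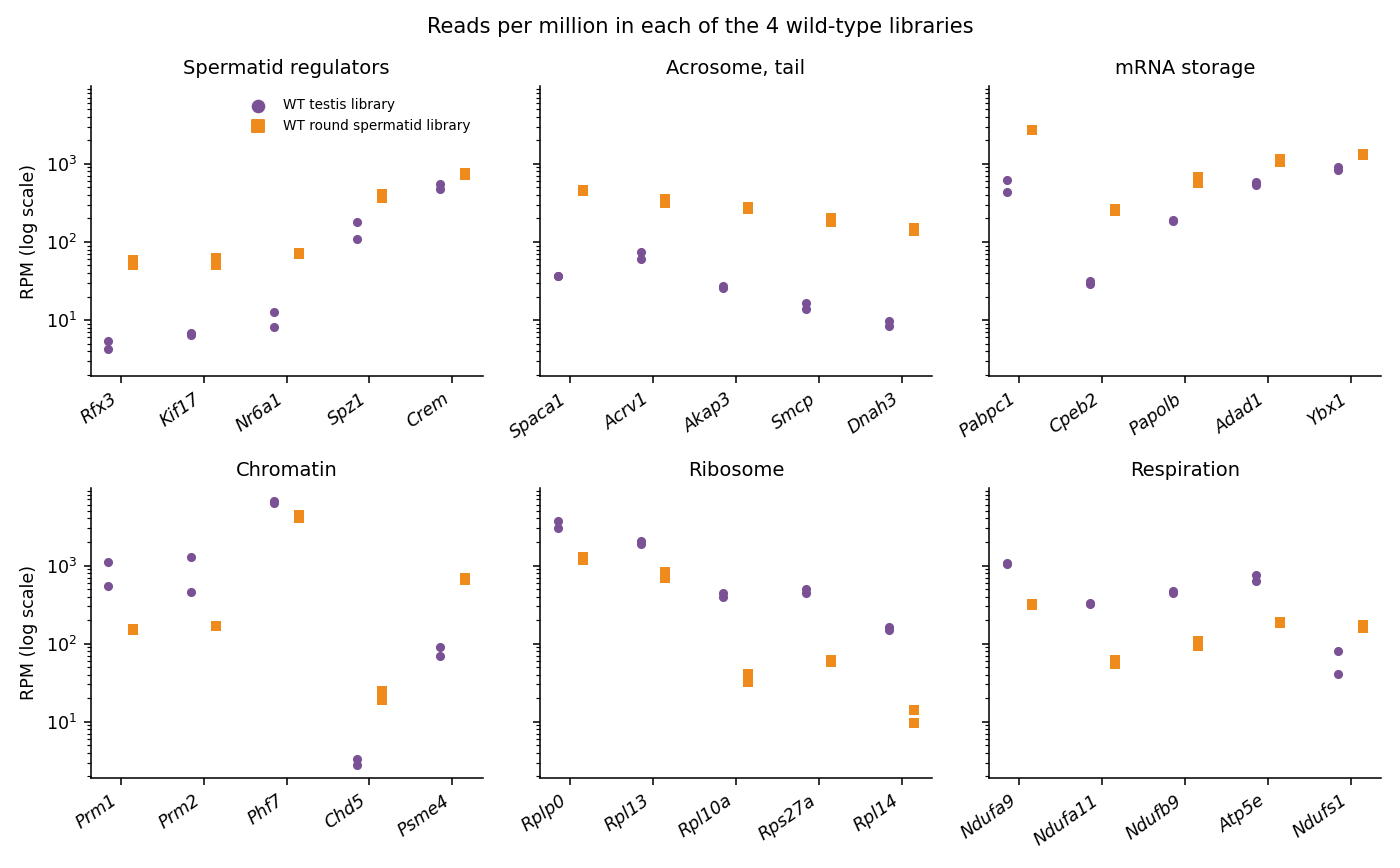
RPM (log scale) in each of the 4 wild-type libraries for 5 genes in each of 6 groups; circles are testis libraries and squares are round spermatid libraries. Spaca1 and Pabpc1 sit higher in both round spermatid libraries, while the ribosomal protein genes shown sit lower in both, as do the respiratory genes other than Ndufs1.

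The list for replacing histones with protamines was split: of 21 genes tested, 3 rose and 8 fell, with a median of -0.42; lower calls were 1 in the fit of all 13 libraries, and 2 and 1 without round spermatid replicate 1 or 2. Prm1, the arginine-rich protamine that packs sperm DNA, was at 1106 and 546 RPM in testis and 150 and 152 RPM in round spermatids (-2.36 ± 0.28 SE, limma adjusted p = 0.000436). Prm2, the other protamine, was at 1299 and 461 RPM and 168 and 166 RPM. The transition protein genes Tnp1 (905 and 447 RPM against 194 and 183 RPM) and Tnp2 (464 and 198 RPM against 72.0 and 72.3 RPM), chosen after their values were seen, fell by 1.75 and 2.06 on the log2 scale. In all 4 genes testis replicate 1 was the higher testis library, while the spermatid libraries were almost equal. Meig1, a factor of the manchette, and Phf7, a reader and ubiquitin ligase of histones, were among the most abundant genes of the list and fell by 1.02 and 0.61, but were at 0.0 and 0.08 after quantile normalization. Psme4, which encodes the PA200 proteasome activator that degrades acetylated histones, rose from 70.0 and 90.7 RPM to 685 and 646 RPM (3.04 ± 0.17, limma adjusted p = 9.88e-05). Chd5, a chromatin remodeler of the same step, rose from 2.82 and 3.36 RPM to 19.2 and 24.5 RPM, and Brdt, a bromodomain reader of acetylated histones, by 0.80. The list's median was 0.77 in Het and 0.18 in KO mice. Testis of Het and KO mice had 16.7 to 268 RPM of Prm1 and 30 to 250 RPM of Prm2, below both wild-type testis libraries. In Het mice both were higher in round spermatids: Prm1 at 26.2 RPM against 49.1 and 42.8 RPM, Prm2 at 54.2 RPM against 111 and 89.5 RPM. In KO mice Prm1 was at 268, 32.1 and 16.7 RPM in testis and 68.8, 54.2 and 13.1 RPM in round spermatids.

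The coding sequence of Prm1 is shown because, in the wild-type libraries, this short transcript fell most among the genes that pack DNA. Capitals mark arginine codons, 28 of its 51 codons, and the sequence is that of transcript Prm1-201 in GENCODE M21, on chromosome 16.
Prm1: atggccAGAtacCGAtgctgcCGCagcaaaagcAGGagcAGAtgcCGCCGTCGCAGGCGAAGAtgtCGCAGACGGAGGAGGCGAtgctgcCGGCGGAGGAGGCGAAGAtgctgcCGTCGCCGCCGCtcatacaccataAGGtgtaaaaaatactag
In Tnp1, the longer coding sequence of the pair, 11 of 55 codons are for arginine, and in Rpl39 9 of 51.

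Ribosomal protein genes fell almost as a block: 77 of 78 were called lower and 0 higher, with a median of -1.46. The exception, Rpl29, named for that, was at -0.94 (limma adjusted p = 0.138). Lower calls were 35 in the fit of all 13 libraries, and 60 and 53 without round spermatid replicate 1 or 2. Rplp0, a protein of the ribosomal stalk and the most abundant of them, was at 3729 and 3061 RPM in testis and 1160 and 1293 RPM in round spermatids (-1.46 ± 0.12 SE, limma adjusted p = 0.000137). Rpl10a was at 395 and 444 RPM and 32.7 and 40.8 RPM (-3.48 ± 0.20, limma adjusted p = 9.88e-05). Together the 78 genes took 45300 and 47500 RPM in wild-type testis and 17100 and 17300 RPM in wild-type round spermatids. In Het and KO mice they summed to 8900 to 26300 RPM in testis and 6730 to 14800 RPM in round spermatids, with KO replicate 1 the highest in both. All 4 other testis libraries lay below both wild-type ones for 66 of the 78 genes. The list's median was -0.32 in Het and -0.60 in KO mice. Rpl10l and Rpl39l, autosomal copies of X-linked ribosomal genes used in germ cells and chosen after their values were seen, were called lower too: the log2 difference was -0.92 for Rpl39l and -4.25 for Rpl39, and -0.48 for Rpl10l and -2.69 for Rpl10. Whether the copies differ from the parents was not tested. These parents and copies share sequence, so reads may be split between them.

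Subunits of the respiratory chain encoded in the nucleus followed: 56 of 67 were lower and 1 was higher, with a median of -1.17. The lower calls were 20 in the fit of all 13 libraries, 29 without round spermatid replicate 1 and 23 without replicate 2. Ndufa9, a subunit of complex I, was at 1056 and 1064 RPM in testis and 312 and 325 RPM in round spermatids (-1.73 ± 0.12 SE, limma adjusted p = 0.000112). Ndufa11 fell from 328 and 318 RPM to 61.4 and 54.9 RPM, and Cox7a2, a subunit of cytochrome c oxidase, from 1952 and 2086 RPM to 782 and 686 RPM. Ndufs1, the largest subunit of complex I, was the 1 that rose, from 40.5 and 81.3 RPM to 174 and 160 RPM. The list's median was -0.08 in Het and -0.33 in KO mice, and 50 of the 67 genes had all 4 other testis libraries below both wild-type ones.

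Transcript length moved with these differences. The median exon length was 4321 bases for genes called higher and 2494 bases for genes called lower, and the ribosomal and respiratory lists had medians of 1775 and 1578 bases against 3639 bases for all genes tested. From the shortest to the longest of 5 equal groups of genes, the share called higher went from 21.1% to 33.4% and the share called lower from 16.7% to 4.42%. Short genes were not all lower: the acrosome and sheath lists had median lengths of 2121 and 1941 bases and rose. With a trend on exon length taken out of each library, 77 ribosomal and 58 respiratory genes were called lower, 20 acrosome genes were higher and 2 lower, and the medians were -1.72, -1.42 and 0.90. The part of RNA input and of library making in the length trend was not tested.

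**Figure D5:**
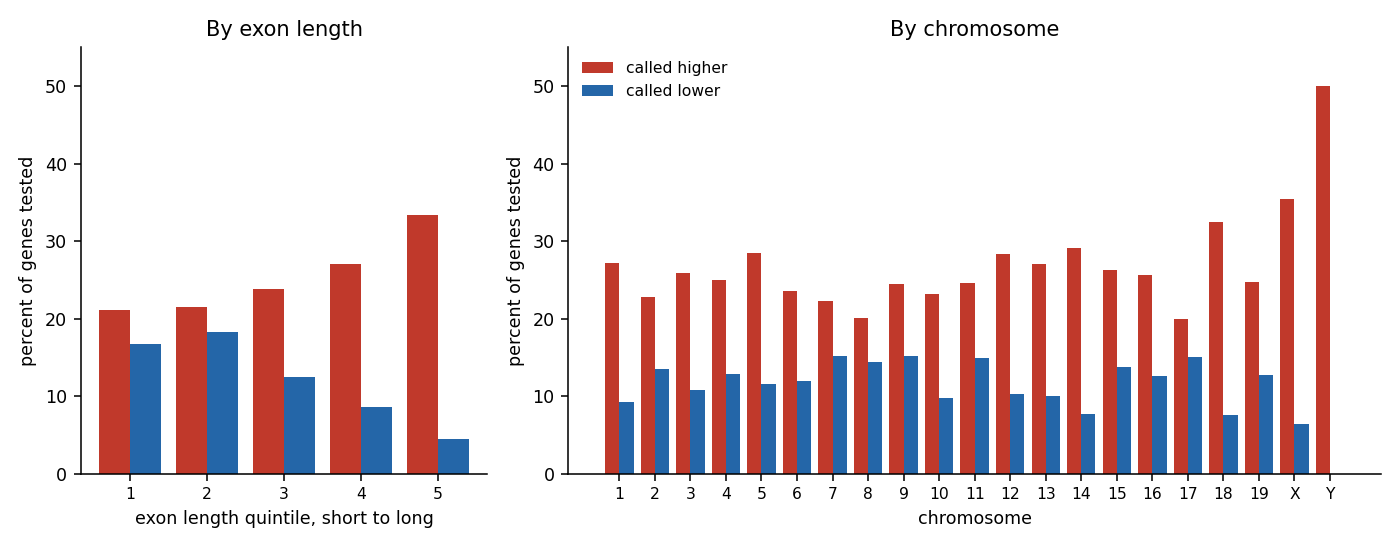
Percent of tested genes called higher (red) and lower (blue) in round spermatids, in 5 groups of exon length and by chromosome. The share called lower drops from 16.7% in the shortest group to 4.42% in the longest, and the X and Y chromosomes have 35.4% and 50% called higher.

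An ETS site (CCGGAAGT on either strand), common in promoters of ribosomal protein genes, was more frequent among genes that fell. It stood in 11.56% of windows of genes called lower, 5.83% of those called higher, 6.38% of those not called and 6.87% of all tested, against 3.89% of all windows. Of 57 ribosomal protein genes with a promoter in the table, 10 held it and 6 held the cAMP response element. Rpl26, shown because it holds both, lies at chr11:68901316-68901615 of GRCm38.p6 on the plus strand, with TGACGTCA starting 134 bases before the start site and CCGGAAGT 5 bases after it, both in capitals.
Rpl26: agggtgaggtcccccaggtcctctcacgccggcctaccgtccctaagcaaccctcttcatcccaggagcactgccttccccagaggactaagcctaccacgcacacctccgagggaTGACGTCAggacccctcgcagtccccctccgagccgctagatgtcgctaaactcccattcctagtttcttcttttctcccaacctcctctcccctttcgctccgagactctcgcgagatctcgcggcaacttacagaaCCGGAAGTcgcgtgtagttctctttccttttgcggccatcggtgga
A match is a stretch of letters and says nothing of binding.

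Genes of the X chromosome, which is silenced in pachytene spermatocytes and partly reactivated after meiosis, were more often higher. Of 458 tested, 162 (35.4%) rose and 29 fell, with a median of 0.934, while the autosomes had medians from 0.138 (chromosome 17) to 0.543 (chromosome 14). X-linked genes took 0.51% and 0.414% of the summed RPM in testis and 0.875% and 0.818% in round spermatids. Of 38 Y-linked genes, 19 rose and 0 fell. Of the list of X and Y genes transcribed after meiosis, 7 of 17 rose and 1 fell (median 0.971), with 1 and 0 called higher without round spermatid replicate 1 or 2. Cylc1, a protein of the sperm head skeleton, rose from 5.04 and 10.6 RPM to 53.9 and 41.6 RPM, Akap4, the main protein of the fibrous sheath, from 260 and 169 RPM to 523 and 486 RPM, and Ube2a, a ubiquitin-conjugating enzyme, from 17.0 and 15.9 RPM to 65.1 and 62.9 RPM. Among Y genes, named after their values were seen, Eif2s3y rose from 6.07 and 12.2 RPM to 89.0 and 72.0 RPM, and Uba1y had no read in either testis library and 10.1 and 19.5 RPM in round spermatids, at least 77.8-fold higher against a floor of 3 reads per library. Several of these genes have near copies on X or Y, which makes their counts uncertain.

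Lists of meiotic and pachytene genes were called at shares close to or under the 25.3% higher and 12.1% lower of all genes tested. Of 34 tested genes of the meiotic chromosome axis and recombination, 6 rose and 4 fell (median -0.01); with centred libraries 5 were higher and 9 lower, with the gene span trend removed 4 and 11, and without round spermatid replicate 1 or 2 the higher calls were 0 and 1. Rec8, the meiotic cohesin, was at 4.01 and 11.4 RPM in testis and 97.7 and 82.9 RPM in round spermatids (3.53 ± 0.43 SE, limma adjusted p = 0.000475), and Sycp1, a protein of the synaptonemal complex, was at 14.9 and 20 RPM and 102 and 83.0 RPM. In Het and KO mice the order was reversed for Sycp1, at 221 to 299 RPM in testis and 41.1 to 155 RPM in round spermatids. Rec8 kept its direction there, at 34.7 to 48.9 RPM and 68.1 to 91.1 RPM. Sycp3, Syce1 and Stag3, other parts of the axis and complex, were at 185 RPM or more in all 4 libraries and did not pass. Of 19 pachytene genes 5 rose and 2 fell, with a median of 0.13 that was negative under centring and both length trends; without either round spermatid library 1 was higher and 1 lower. Ldhc, the lactate dehydrogenase of germ cells, had the highest RPM per kilobase of exon in both groups; it fell from 18010 and 15990 RPM to 10540 and 10060 RPM (-0.72 ± 0.07, limma adjusted p = 0.000258), and as the first in rank in both groups it has no difference after quantile normalization. Of 24 cell division genes 11 rose and 3 fell (median 0.57), but 6 were higher and 6 lower with centred libraries or the exon length trend removed, and 1 was higher and 0 lower without either round spermatid library. Ccnb2, a cyclin of the division phase, was at 278 and 277 RPM in testis and 587 and 589 RPM in round spermatids, while Cdk1, its kinase partner, fell from 63.6 and 82.1 RPM to 37.0 and 32.8 RPM.

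Of 25 germ cell forms of metabolic enzymes 9 rose and 7 fell, with a median of 0.09 that was negative under centring, quantile normalization and both length trends. Hk1, a hexokinase, rose from 63.0 and 50.9 RPM to 257 and 301 RPM, and Gk2, a glycerol kinase, fell from 1729 and 1760 RPM to 1138 and 1102 RPM. Of 24 genes of the piRNA pathway and the chromatoid body, the RNA granule of spermatids, 6 rose and 7 fell (median -0.18), and 4 and 10 did with centred libraries. For both lists the shares to compare are the 25.3% higher and 12.1% lower of all genes tested. Tdrd6 and Tdrd7, tudor proteins of that granule, rose by 2.20 and 2.83 on the log2 scale, and Fkbp6, a cochaperone of piRNA loading, fell from 75.5 and 77.5 RPM to 8.64 and 11.5 RPM. Mael, a piRNA factor at 5036 and 5318 RPM in testis and 4474 and 3945 RPM in round spermatids, was called lower at -0.30 but was at 0.46 after quantile normalization.

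Among protease inhibitors and proteases, Wfdc15a itself was at 212 and 207 RPM in testis and 267 and 234 RPM in round spermatids, and did not pass (0.25 ± 0.15 SE, limma adjusted p = 0.232). It lies at chr2:164198863-164200130 of mm10 on the minus strand and has 3 exons. Of 10 tested genes of its family and locus 0 rose and 4 fell (median -0.87): Wfdc10 fell from 34.1 and 19.7 RPM to 0.467 and 0.932 RPM, and Wfdc1, Wfdc9 and Wfdc5 fell from levels of 1.52 to 13.8 RPM in testis. Eppin, the inhibitor on the surface of sperm, was at 21.2 and 27.2 RPM and 15.5 and 13.9 RPM and did not pass. Of 22 testis serine proteases 4 rose and 6 fell (median -0.38), and 3 and 12 did with centred libraries. Among all genes tested 25.3% rose and 12.1% fell. Prss54 rose from 34.1 and 31.2 RPM to 188 and 204 RPM and Acr, the acrosin precursor gene, from 80.5 and 90.8 RPM to 224 and 261 RPM. Prss44 and Prss45, neighbours of Prss46 on chromosome 9, fell by 1.75 and 1.46 on the log2 scale, while Prss46 rose by 2.39.

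Markers of somatic cells were called lower more often than higher. Among all genes tested 12.1% were called lower and 25.3% higher. Of 14 tested Leydig genes 7 fell and 0 rose, of 20 Sertoli genes 8 fell and 1 rose, of 14 stromal and myoid genes 5 fell and 1 rose, and of 10 leukocyte genes 3 fell and 1 rose; 0 of 10 endothelial genes were called in either direction. These calls were few in other fits: lower calls were 1 Leydig, 1 Sertoli, 0 stromal and 1 leukocyte gene in the fit of all 13 libraries, and 1, 2, 0 and 1 without either round spermatid library. With voom on recovered reads 4 Leydig, 4 Sertoli and 0 stromal genes were lower, and without testis replicate 2 there were 4 Sertoli and 3 stromal genes. Cyp17a1 had no read in either spermatid library, at least 58.3-fold lower against a floor of 3 reads per library, and Insl3 was at 18.4 and 13.2 RPM in testis and 0.175 and 0 RPM in round spermatids. Clu fell from 16.3 and 17.5 RPM to 2.1 and 1.62 RPM. The genes that rose were Tjp1, a junction protein (8.73 and 12.7 RPM against 45.7 and 51.1 RPM), Actg2, an actin (83.0 and 55.5 RPM against 141 and 110 RPM), and Cx3cr1, a chemokine receptor (311 and 394 RPM against 596 and 583 RPM). Of 11 tested genes of spermatogonia and meiotic entry 2 rose and 1 fell. Gfra1 rose from 5.42 and 2.41 RPM to 19.8 and 18.0 RPM, and Tspan8 from 1.25 and 2.60 RPM to 6.72 and 6.77 RPM. Stra8, which starts meiosis, fell from 2.71 and 1.84 RPM to 0.0584 and 0 RPM. Hba-a1, the 1 tested gene of red cells, fell from 11.1 and 4.31 RPM to no read. Of 12 stress genes 4 rose and 1 fell (median 0.34, negative under centring and quantile normalization), and of 5 nuclear or imprinted long RNAs 2 rose (Airn by 2.37 and Kcnq1ot1 by 2.95 on the log2 scale) and 0 fell.

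The wild-type difference was also set against the same difference in other genotypes, in 1 limma fit of all 13 libraries over 20085 genes. Against Het (1 testis and 2 round spermatid libraries), 0 genes (0.0%) were called, with 2396 at an unadjusted p under 0.05 and 0 called by voom on recovered reads. Against KO (3 and 3 libraries), 428 genes (2.13%) were called, 369 with a higher and 59 with a lower wild-type difference. Centring the libraries left 0, and so did leaving out testis replicate 1 or either round spermatid library; 162 were left without testis replicate 2. Over the genes called higher in wild-type mice the median difference was 1.73, against 0.435 in Het and 0.439 in KO mice, and 69.8% and 73.3% of them had the same sign there, against 60.8% and 61.8% of all genes tested. Over the genes called lower the medians were -1.42, -0.51 and -0.41, and 70.1% and 70.8% had the same sign. Over all genes tested the medians were 0.305, -0.147 and -0.021 in the same order. The genes were called with the wild-type values, a choice that in itself favours smaller differences in the other genotypes. KO replicate 1, whose testis library was likewise low in Sertoli markers, had a median of 0.541 over the genes called higher and -0.207 over those called lower, against 0.263 over all genes tested. In both sample types KO replicate 1 stood apart from KO replicates 2 and 3: Clu was at 2.44 RPM in its testis and 1.62 RPM in its round spermatid library, against 1160 and 1200 RPM and 129 and 122 RPM.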

How the data were processed

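The authors deposited 1 table of log2 RPM for 30479 genes and 13 libraries. The submitters' processing notes list HISAT2 2.1.0, Trim Galore 0.6.6 and FastQC 0.11.8, and the build mm10; the counting program is not given in the sources used here. From the deposited log2 values RPM and reads were recovered: 0.9 read stood for no read, and 99.704% to 99.87% of the wild-type values came out whole within 0.01 read. Mitochondrial genes had no read. Testing took genes that reached 1 RPM in 2 or more of the 4 libraries and was done with limma 3.58.1 (trend, R 4.3.3) on log2(RPM + 1), 2 against 2, with Benjamini-Hochberg adjustment; the fit was tested on simulated data. Replicates differed beyond sampling noise (chi-square per degree of freedom 35.6 in testis, 23.9 in round spermatids). Lengths came from GENCODE M21, where 96.67% of symbols matched. Named genes were the 15 largest called changes per direction with non-overlapping groups and at least 10 RPM in the higher group, leaving out predicted genes and pseudogenes, and up to 4 per list by p, by level and by opposite direction, and Wfdc15a always; other genes are said to be chosen after their values were seen. The members, lists and tests were chosen with earlier results of these data known.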

Additional observations from a re-analysis of the deposited data

Results flagged for a closer look

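The difference between round spermatids and testis was compared between wild-type and KO mice by an interaction term in limma, and 428 genes passed an adjusted p of 0.05. On the log2 scale the wild-type difference exceeded the KO difference by 5.67 for Kcnq1ot1, 5.22 for Adgb, 4.74 for Ccdc138, 4.56 for Fam76b and 4.49 for Taok3. It was below the KO difference for Cntn1 (-3.50), Dapp1 (-2.30), Cd320 (-2.25), Ubash3a (-2.05) and Tmbim7 (-2.02). In these 10 genes both wild-type testis libraries lay outside the range of the 4 others: Kcnq1ot1, an imprinted antisense RNA, was at 0.380 and 0.0634 RPM there and at 21.5 to 32.8 RPM in the 4 other testis libraries, against 8 and 8.68 RPM in wild-type round spermatids. The KO round spermatid libraries were lower than all others there too, at 2.72, 3.57 and 3.48 RPM against 9.51 and 11.1 RPM in Het. Fam76b was at 2.39 and 1.9 RPM in wild-type testis and 16.8 to 26.3 RPM in the other testis libraries, and at 14.3 and 13.6 RPM in wild-type and 0.717, 8.67 and 3.34 RPM in KO round spermatids. Cd320, a receptor for vitamin B12 transport, was at 896 and 750 RPM in wild-type testis and 194 to 264 RPM in the other testis libraries, while all 7 round spermatid libraries lay between 195 and 301 RPM. Tmbim7 was at 1510 and 1530 RPM in wild-type testis and 337 to 558 RPM in the others. Genotype and other properties of the libraries cannot be told apart here.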

How the results depend on the processing

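The 4029 higher and 1925 lower calls became 2507 and 3336 with centred libraries, 2596 and 3008 with a gene span trend removed, and 2492 and 2974 with an exon length trend removed (15505 genes, chosen after seeing the data). A fit of all 13 libraries called 2101 and 596. Leaving out 1 library at a time gave 424 to 3570 higher and 337 to 1625 lower calls, the lowest without round spermatid replicate 2. The 428 genes of the wild-type against KO difference became 0 with centred libraries and 0 to 162 without 1 wild-type library. The other settings (pseudocount of 0.1 RPM, deposited log2 values, other filters and thresholds, quantile normalization and voom) kept these counts within 1.5 times. Signs turned for Adam3 (-0.165 centred, -0.311 gene span), Ropn1l (-0.152 centred), Crem (-0.13 gene span), Slc26a8 (-0.122 gene span) and Odf2 (-0.096 exon length), and under quantile normalization for Phf7 (0.083) and Mael (0.464), with Meig1 at 0.0. Of 243 named genes, 63 lost or missed the call in the fit of all libraries, 75 without round spermatid replicate 1 and 84 without replicate 2. The labels do not say what a shared replicate number stands for; between the 2 wild-type groups same-numbered deviations correlated at -0.025, and a fit with the replicate block called 4342 higher and 2062 lower. The planned negative binomial tests were not run, since log2 RPM values were deposited rather than counts. Depth limits genes near 0.147 to 0.190 RPM.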
